A study of Mus musculus with 12 samples.

Results

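The 12 samples of mouse brown adipose tissue differed widely in skeletal muscle transcripts, and the 6 samples with the higher signal of Acta1, the actin of skeletal muscle thin filaments, were set against the other 6. The brightest Acta1 probe of the non-normalised bead signals was taken, and a sample was counted as muscle-rich where its log2 signal lay above the mean of all 12, which was 8.67. This gave 6 muscle-rich samples, 2 SIRT1tg and 4 WT, and 6 muscle-poor samples, 4 SIRT1tg and 2 WT, of 12 in all. Total RNA had been hybridised to Illumina expression arrays, 1 array per sample. All samples came from mice of the C57Bl/6N background aged 3 months; the SIRT1tg samples carry the strain label SIRT1Tg/Tg and the 6 WT samples are wild type, and the labels name no promoter for the transgene. The labels do not say whether the samples came from separate animals, so a p-value reflects only how far these samples vary, which may be technical. Samples are named by group and by the order of a number in the array names, whose meaning is not given; the numbers fall into a low and a high range, with 2 low and 4 high among the muscle-rich samples and 4 low and 2 high among the muscle-poor ones.

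Skeletal muscle shortens when thin filaments of actin, tropomyosin and the troponins slide along thick filaments of myosin, and calcium released by the ryanodine receptor starts each contraction until the pump Atp2a1 returns it to store. Fast and slow fibres carry different isoforms of most of these proteins. Brown fat is rich in mitochondria, dissipates energy as heat through Ucp1, arises from precursors related to those of muscle, and lies against muscle in the interscapular depot, so that a few genes are shared by both tissues. Because the samples were divided on Acta1, the muscle genes that go with it are described here without p-values; their numbers past the threshold are given as a description only, and tests are read only for genes outside the muscle lists. In RNA of whole tissue, more muscle cells and more muscle RNA per cell cannot be told apart.

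In several pairs of related genes the isoform of muscle followed Acta1 while its relative stayed flat, and 3 such pairs, chosen after their values were seen, are shown by their promoters, from 250 bases before to 50 bases after the annotated start (RefSeq, GRCm38.p6, each read 5′ to 3′ on the gene's strand). Acta1 is on chromosome 8 (chr8:123894726-123895025, minus strand) and its smooth muscle relative Acta2 on chromosome 19 (chr19:34255324-34255623, minus strand). The muscle creatine kinase Ckm is on chromosome 7 (chr7:19410844-19411143, plus strand) and the widely expressed Ckb on chromosome 12 (chr12:111672289-111672588, minus strand). The phosphoglycerate mutase of muscle, Pgam2, is on chromosome 11 (chr11:5803747-5804046, minus strand) and the widely expressed Pgam1 on chromosome 19 (chr19:41911621-41911920, plus strand). Capitals mark exact matches, on either strand, to the CArG box bound by serum response factor (CCWWWWWWGG) and the MEF2 box (YTAWWWWTAR). They also mark TATAAA, and CAGCTG, a form of the E-box CANNTG bound by myogenic factors. W stands for A or T, Y for C or T and R for A or G, and stretches that differ from a pattern by 1 base are not marked.
Acta1: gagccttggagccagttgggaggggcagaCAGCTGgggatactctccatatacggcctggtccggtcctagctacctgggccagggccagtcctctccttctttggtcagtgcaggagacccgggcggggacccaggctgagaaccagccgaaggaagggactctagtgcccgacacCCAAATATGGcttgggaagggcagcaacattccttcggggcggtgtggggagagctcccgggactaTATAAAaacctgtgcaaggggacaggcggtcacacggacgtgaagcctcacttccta
Acta2: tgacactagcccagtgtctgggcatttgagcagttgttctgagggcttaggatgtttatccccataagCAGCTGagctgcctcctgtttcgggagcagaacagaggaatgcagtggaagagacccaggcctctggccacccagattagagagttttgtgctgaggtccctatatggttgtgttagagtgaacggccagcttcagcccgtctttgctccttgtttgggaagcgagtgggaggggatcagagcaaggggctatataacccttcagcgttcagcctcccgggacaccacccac
Ckm: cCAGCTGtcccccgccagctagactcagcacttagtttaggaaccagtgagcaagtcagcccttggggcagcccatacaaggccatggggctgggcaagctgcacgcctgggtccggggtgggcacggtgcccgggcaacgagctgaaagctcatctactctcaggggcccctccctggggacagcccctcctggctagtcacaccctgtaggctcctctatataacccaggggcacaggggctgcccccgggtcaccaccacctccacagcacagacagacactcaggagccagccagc
Ckb: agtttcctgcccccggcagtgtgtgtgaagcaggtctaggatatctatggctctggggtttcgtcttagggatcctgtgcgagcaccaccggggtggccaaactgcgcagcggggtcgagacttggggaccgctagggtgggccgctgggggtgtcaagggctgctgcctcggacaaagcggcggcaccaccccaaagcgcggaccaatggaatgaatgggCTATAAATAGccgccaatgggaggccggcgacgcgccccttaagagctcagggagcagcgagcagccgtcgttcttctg
Pgam2: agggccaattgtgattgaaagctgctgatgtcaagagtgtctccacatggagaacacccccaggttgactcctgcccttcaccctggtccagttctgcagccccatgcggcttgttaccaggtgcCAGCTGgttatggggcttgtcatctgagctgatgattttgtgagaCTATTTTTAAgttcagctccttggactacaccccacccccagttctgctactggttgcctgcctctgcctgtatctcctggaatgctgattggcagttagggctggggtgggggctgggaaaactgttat
Pgam1: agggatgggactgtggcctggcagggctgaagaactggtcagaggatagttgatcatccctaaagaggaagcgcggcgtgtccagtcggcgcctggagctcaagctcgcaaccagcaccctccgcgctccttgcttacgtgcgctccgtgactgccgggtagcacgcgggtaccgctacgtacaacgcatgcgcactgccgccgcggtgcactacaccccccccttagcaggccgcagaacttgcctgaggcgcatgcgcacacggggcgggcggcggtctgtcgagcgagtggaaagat
The Acta1 promoter held 1 CArG box, 1 CAGCTG and 1 TATAAA. That of Acta2 held 1 CAGCTG and no exact CArG box, though its stretches ccctatatgg and ccttgtttgg each differ from the pattern by 1 base. Such near matches are not particular to Acta2. They also stand in Acta1, as ccatatacgg and ccttctttgg, and in Ckm, as ccatacaagg. The Ckm promoter held 1 CAGCTG. In the Ckb promoter the only capitals are 1 MEF2 box and the TATAAA that overlaps it. The Pgam2 promoter held 1 CAGCTG and 1 MEF2 box, while that of Pgam1 held none of these motifs. Of 32851 promoters of this length in the table, 1.63% held a CArG box, 3.19% a MEF2 box, 13.6% TATAAA, 16.3% CAGCTG and 72.3% any CANNTG. Among the 18 genes called higher in the muscle-rich samples, described in the next paragraphs, 13 had an entry, and 8 of these had CAGCTG in at least 1 of their promoters, 4 a MEF2 box, 1 a CArG box, 1 TATAAA and 12 any CANNTG. Some genes have several promoters and so more chances of a match, and a match is a description of letters, not of a bound factor.

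On the non-normalised scale on which the division was made, Acta1 had log2 signals of 8.81 to 11.88 in the muscle-rich samples and at most 6.84 in the muscle-poor ones, with nothing between, so that a division at the widest gap gives the same 6 and 6. The sample nearest the mean was SIRT1tg 6, at 8.81. Dividing on Atp2a1 or on Pvalb, the calcium buffer of fast fibres, puts every sample on the same side, whereas the means of the fast troponins Tnni2 and Tnnc2 would move SIRT1tg 6 alone to the muscle-poor side. Acta1 was not above background (detection p of 0.05 or more) in 2 of the muscle-poor samples, SIRT1tg 3 and WT 6. The share of probes detected per array was 44.7% to 47.1% in the muscle-rich and 43.7% to 46.0% in the muscle-poor samples. The brown fat genes Ucp1 and Cidea lay at normalised log2 signals of 12.80 to 13.79 and 13.62 to 13.83 in the muscle-rich samples. In the muscle-poor samples they lay at 13.24 to 13.74 and 13.64 to 13.79. These values do not show that the samples were alike in other respects.

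**Figure D1:**
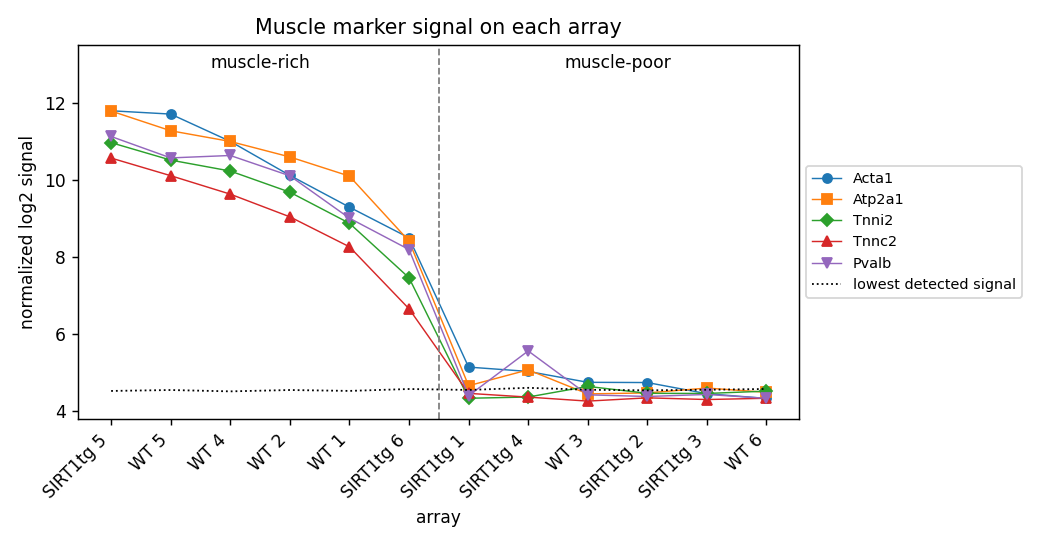
Normalised log2 signal (vertical axis) of 5 muscle markers on each array, muscle-rich samples left of the dashed line, each side ordered by Acta1; the dotted line is the lowest signal of any detected probe on that array. Acta1 lies between 8.49 and 11.79 on the left and between 4.32 and 5.14 on the right.

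Across 8035 genes, with genotype as a covariate, 18 were higher in the muscle-rich samples at an adjusted p under 0.05 in limma (0.224% of the genes tested) and 0 were lower. At an unadjusted p under 0.05 there were 628 genes in either direction. Leaving out 1 sample at a time gave 8 genes (without WT 3) to 28 (without SIRT1tg 6), and 8 of the 18 were called each time. Among genes detected on all 12 arrays limma called 0, against 531 at an unadjusted p under 0.05. Of the 18, 17 belong to the muscle lists, which hold the genes that the division on Acta1 itself selects, so nothing is read from that share. Of the 18, 10 were detected in no muscle-poor sample and so passed the filter on low values only through the muscle-rich side. In all, 34 genes had no overlap between the sides with every muscle-rich sample higher (0.423%), 26 of them in the muscle lists, and 12 had every muscle-rich sample lower. The flat class was defined by a 95% interval of the side difference within 0.5 of 0 on the log2 scale and held 6072 genes (75.6%). Over all genes the median side difference was -0.02.

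The sarcomere lists held 46 genes on the array, of which 27 were detected often enough to be tested (on at least 6 of 12 arrays). Of these, 8 passed only through the muscle-rich samples, being detected in no muscle-poor sample. Another 12 missed the filter although at least 1 muscle-rich and no muscle-poor sample showed them. The median difference of the 27 was 1.33, against -0.02 for all genes, and 25 were higher, 9 of them past the threshold, which the division fixes in part. Differences below are muscle-rich minus muscle-poor on the log2 scale of normalised signal, given genotype, with SE. Where no muscle-poor sample was above background, the fold is a lower bound, taken from the mean of the muscle-rich samples over the lowest signal of detected probes on each muscle-poor array, or the gene's own signal where that was higher. This fold bounds the effect of the background only, and takes no account of genotype or of the spread between samples.

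Of the sarcomere lists, that of the fast thin filament had the largest median difference, 3.65 over 8 genes. Acta1 had normalised log2 signals of 8.49 at the lowest, 10.55 at the median and 11.79 at the highest in the muscle-rich samples, against 4.32, 4.74 and 5.14 in the muscle-poor samples, a difference of 5.65 ± 0.51. The inhibitory troponin Tnni2 ran at 7.45, 9.95 and 10.96 in the muscle-rich samples, against 4.33, 4.45 and 4.63 in the muscle-poor samples, where 1 array detected it, and differed by 5.03 ± 0.47. For the calcium-binding troponin Tnnc2 the values were 6.65, 9.33 and 10.56 in the muscle-rich samples, against 4.25 to 4.45 in the muscle-poor samples, none of which was above background, so that it was at least 22.4-fold higher. In each of these genes SIRT1tg 6 was the lowest of the muscle-rich samples, and the sides did not overlap. The tropomyosin-binding troponin Tnnt3 was at least 10.3-fold and the fast alpha-actinin Actn3 at least 4.55-fold higher. Tropomyosin Tpm2, above background in 1 muscle-poor sample, differed by 3.66 ± 0.56 on its brightest probe and by 0.77 ± 0.25 on its other detected probe. Tpm1, a tropomyosin of many tissues that is itself in the fast thin filament list, was flat at 0.17 ± 0.12 and did not follow Acta1. The alpha-actinin of non-muscle cells, Actn4, was flat at -0.12 ± 0.11, and so was Tpm3, a tropomyosin of slow fibres and other cells, at 0.13 ± 0.13. Tnnt3, Actn3, Tpm2 and Actn4 were named after their values were seen.

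In the thick filament and its anchors, the regulatory light chain Mylpf had 6.28, 8.46 and 9.17 in the muscle-rich samples, against 4.32, 4.42 and 4.79 in the muscle-poor samples, where 1 array detected it, and differed by 3.52 ± 0.46. Where so few muscle-poor arrays were above background, as also for Tnni2, Pvalb, Tpm2, Cox6a2 and Eef1a2, the difference is set largely by the background level and its size is uncertain. The giant elastic protein Ttn, at 5.08, 7.46 and 8.86 in the muscle-rich and 4.21 to 4.39 in the muscle-poor samples, was at least 6.96-fold higher. Myosin-binding protein Mybpc2, which steadies the fast thick filament, was at least 3.32-fold higher, the heavy chain of the fastest fibres Myh4 at least 2.93-fold, the titin cap Tcap at least 4.52-fold and the Z-disc protein Myoz1 at least 2.37-fold. Some sarcomere genes were above background in all 12 samples: the light chain Myl1 had 11.68 to 12.47 in the muscle-rich and 10.96 to 11.76 in the muscle-poor samples, with a slight overlap and a difference of 0.78 ± 0.18. The M-band protein Myom1 also belonged to these and differed by 0.80 ± 0.20. The Z-disc adaptor Pdlim7 was flat at -0.13 ± 0.14, and Nrap differed by 0.10 ± 0.19 on its brightest probe but by 1.38 ± 0.34 on its other detected probe, so its probes disagree.

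**Figure D2:**
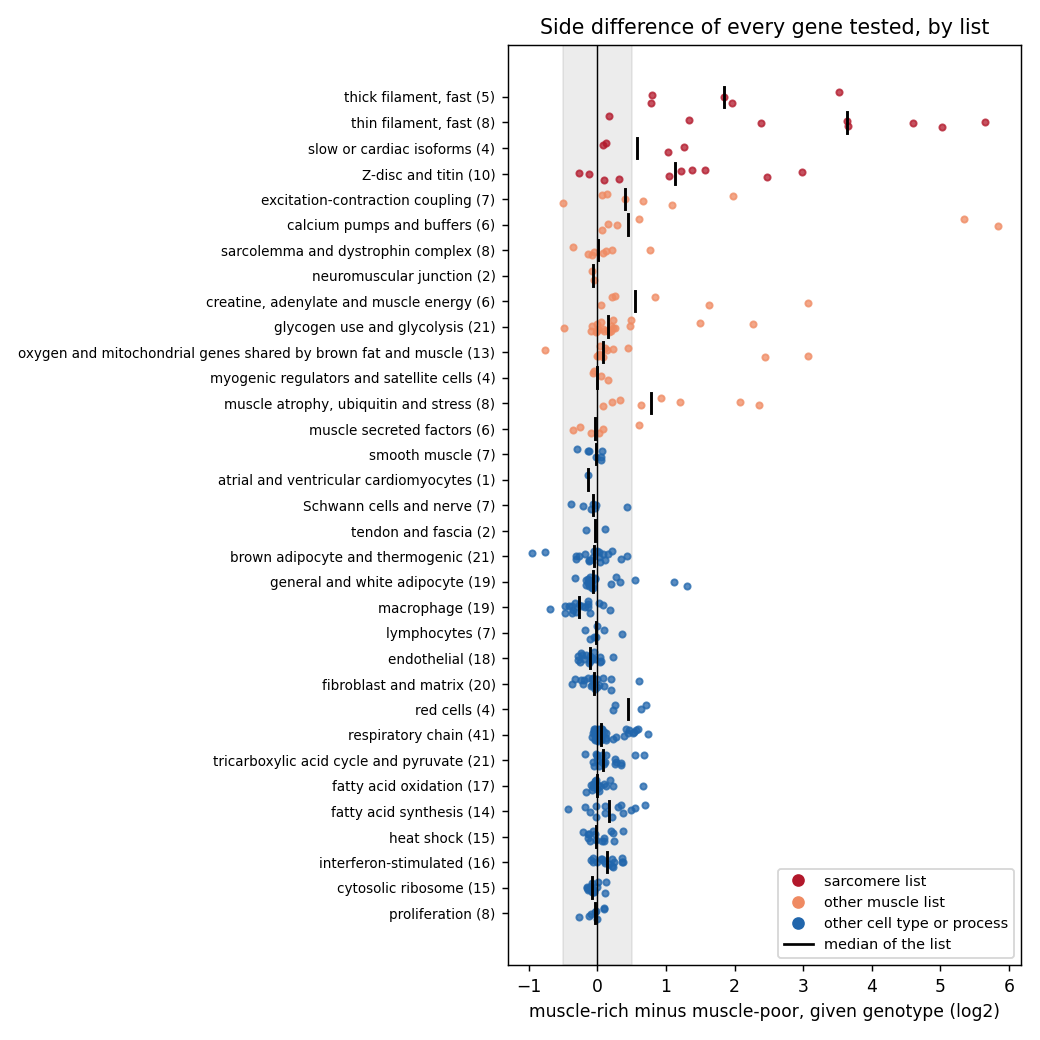
Muscle-rich minus muscle-poor difference given genotype (horizontal axis, log2) of each gene tested, by list, with the number tested in brackets and black bars at the list medians; the grey band marks 0.5 on either side of 0. Sarcomere lists reach 5.65 and the calcium list 5.84, while lists of other cell types and processes have medians between -0.27 and 0.45.

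Of the genes that handle calcium, a few moved as far as actin and the rest did not. The pump Atp2a1 had 8.41, 10.79 and 11.78 in the muscle-rich samples, against 4.44, 4.54 and 5.06 in the muscle-poor samples, where 3 arrays detected it, and differed by 5.84 ± 0.45. Pvalb ran at 8.19, 10.33 and 11.12 in the muscle-rich samples, against 4.32, 4.40 and 5.56 in the muscle-poor samples, and differed by 5.34 ± 0.45. The one muscle-poor sample with Pvalb above background was SIRT1tg 4, which was also the highest of its side for Atp2a1 and Tpm2. The release channel Ryr1 was at least 3.27-fold higher on its brightest probe, with a difference of 1.25 ± 0.31 on another, and the calcium store protein Hrc differed by 1.09 ± 0.29, with 5 muscle-rich samples and 1 muscle-poor sample above background. By contrast Atp2a2, the pump of slow muscle, heart and most other cells, had 9.88 to 10.58 in the muscle-rich and 9.97 to 10.30 in the muscle-poor samples and was flat at 0.07 ± 0.12.

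Energy genes divided in the same way. Ckm had 5.30, 7.54 and 8.72 in the muscle-rich samples, against 4.15 to 4.23 in the muscle-poor samples, at least 6.98-fold higher, while Ckb had 9.14 to 9.85 in the muscle-rich and 9.37 to 9.78 in the muscle-poor samples, a flat difference of 0.05 ± 0.14. Pgam2 was at least 4.06-fold higher, and Pgam1 was flat at 0.09 ± 0.11. AMP deaminase of muscle, Ampd1, was at least 2.66-fold higher, and its relative Ampd2 was flat at 0.14 ± 0.15. The muscle enolase Eno3 was above background in every sample, at 6.60 to 8.53 in the muscle-rich and 5.84 to 6.33 in the muscle-poor samples, and differed by 1.49 ± 0.32. Over the 21 genes tested of glycogen use and glycolysis the median difference was only 0.16, with 9 flat, against 75.6% flat over all genes. Phosphofructokinase Pfkm differed by 0.49 ± 0.20 on its brightest probe and by 0.23 ± 0.21 and 0.44 ± 0.22 on others. Its relative Pfkl differed by 0.23, with a 95% interval of -0.15 to 0.60, and was not in the flat class. Hexokinase Hk2, which traps glucose in the cell and was named after its values were seen, ran the other way, at 10.77 to 11.54 in the muscle-rich and 11.40 to 12.07 in the muscle-poor samples, a difference of -0.48 ± 0.10 that was also seen within SIRT1tg (-0.41) and within WT (-0.56).

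Genes that brown fat shares with muscle differed in how far they followed Acta1. Cytochrome c oxidase has tissue isoforms, and Cox6a2, that of heart and skeletal muscle, had 5.07, 7.52 and 9.0 in the muscle-rich samples, against 4.17, 4.23 and 4.55 in the muscle-poor samples, where 1 array detected it, a difference of 3.08 ± 0.54. Its general relative Cox6a1 was flat at 0.04 ± 0.09. Cox7a1 and Cox8b, also subunits of muscle and known as brown fat markers, were flat at 0.09 ± 0.10 and 0.02 ± 0.08, with the lowest signals of any array at 12.97 and 13.62. So near the top of the scale quantile normalisation leaves little room for a difference, so their flatness does not show that muscle adds nothing to them. Cox7a2, the general relative of Cox7a1, went against the pairs above: it differed by 0.45 ± 0.16, with overlapping sides, and was not flat. Myoglobin, Mb, stores oxygen and is present in brown fat: it was detected in all 12 samples, at 6.01, 7.23 and 9.51 in the muscle-rich samples, against 4.62, 5.28 and 5.97 in the muscle-poor samples, and differed by 2.44 ± 0.54, or by 1.56 ± 0.46 on its other detected probe. The muscle form of ribosomal protein L3, Rpl3l, differed by 2.35 ± 0.43, whereas Rpl3 itself was flat at -0.11 ± 0.14, and the elongation factor of muscle and neurons Eef1a2 differed by 2.08 ± 0.45. The related pairs were chosen after their values were seen.

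**Figure D3:**
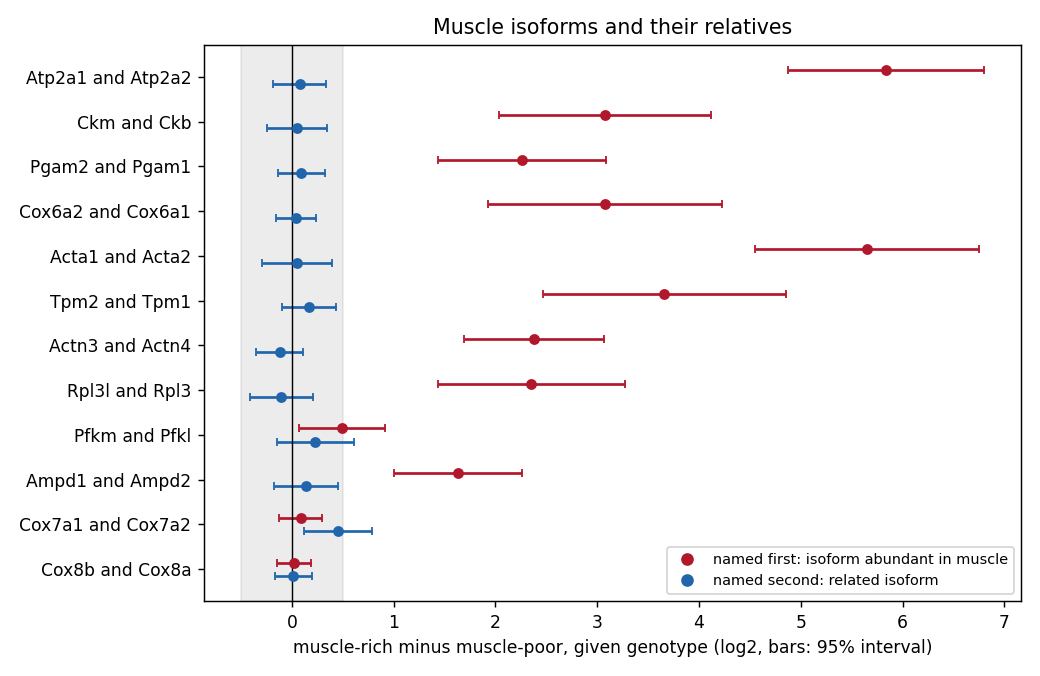
Muscle-rich minus muscle-poor difference given genotype (horizontal axis, log2, bars are 95% intervals) for pairs of related genes, the isoform abundant in muscle in red and its relative in blue. Tpm1, in blue, is itself in the fast thin filament list. Atp2a1 stands at 5.84 and Atp2a2 at 0.07, Ckm at 3.08 and Ckb at 0.05; Cox7a1 and Cox8b stay within the grey band of 0.5 on either side of 0, and Cox7a2 reaches past it.

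Genes of the membrane, the nerve contact and the muscle stem cell had medians near 0. In the sarcolemma and dystrophin list the median of 8 genes tested was 0.01, with Sgcb and Sgcd of the sarcoglycan complex flat at -0.05 ± 0.13 and -0.08 ± 0.10, and the membrane repair protein Trim72 the largest at 0.76 ± 0.26. Dysf, which also serves membrane repair, differed by 0.13 ± 0.18, and the creatine carrier Slc6a8 of the energy list by 0.21 ± 0.24. At the neuromuscular junction 10 of 12 genes missed the filter, 7 of them detected on no array, and the other two, Agrn and Chrnb1, differed by -0.05 ± 0.12 and -0.08 ± 0.20. Among myogenic regulators and satellite cell genes 17 of 21 missed the filter, 10 of them detected nowhere. The 4 tested were all flat on their brightest probes, among them Mef2c at 0.05 ± 0.13, Mef2d at -0.05 ± 0.13 and Myog at 0.15 ± 0.13, although a further Mef2c probe differed by 0.60 ± 0.20. Mef2d was above background in 3 samples of each side and Myog in 5 muscle-rich and 3 muscle-poor samples, so a difference there would be hard to see. Over all muscle lists 108 of 197 genes on the array were tested, 12 of them through the muscle-rich samples alone. Of the 108, 38 were flat, against 75.6% of all genes.

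Several slow fibre genes did not keep a common proportion to Acta1 among the muscle-rich samples. Acta1 was almost level in SIRT1tg 5, WT 5 and WT 4, with non-normalised log2 signals of 11.77, 11.88 and 11.19. The slow regulatory light chain Myl2 had normalised log2 signals of 7.93 in SIRT1tg 5, 9.94 in WT 5 and 4.27 in WT 4, the last not above background. The slow troponin Tnnt1 had 7.67 in SIRT1tg 5, 9.53 in WT 5 and 4.68 in WT 4, and 6.26 in WT 2, 5.23 in WT 1 and 4.50 in SIRT1tg 6, against 4.16 to 4.52 in the muscle-poor samples, none of them above background. For both of these genes WT 5 was the highest, and WT 4, close to it in Acta1, was far below SIRT1tg 5 and WT 5. Other genes of the slow list differed from this order: the LIM protein Csrp3 had 6.83 in SIRT1tg 5, 7.46 in WT 5 and 6.39 in WT 4. The slow myosin-binding protein Mybpc1 had 6.67 in SIRT1tg 5, 6.31 in WT 5 and 4.98 in WT 4. The slow inhibitory troponin Tnni1 and the pump inhibitor Sln were above background in WT 5 alone, at 5.23 and 6.43, and the slow Z-disc protein Myoz2 in SIRT1tg 5 and WT 5, at 5.52 and 6.38. The slow heavy chain Myh7 was above background in no sample. Other slow genes were also above background in muscle-poor samples: the light chain Myl3 had 5.37 to 9.53 in the muscle-rich and 5.37 to 7.25 in the muscle-poor samples, and the troponin of slow muscle and heart Tnnc1 had 4.53 to 9.27 in the muscle-rich and 4.55 to 5.45 in the muscle-poor samples, so that the sides overlapped and the differences were 1.03 ± 0.61 and 1.26 ± 0.69.

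**Figure D4:**
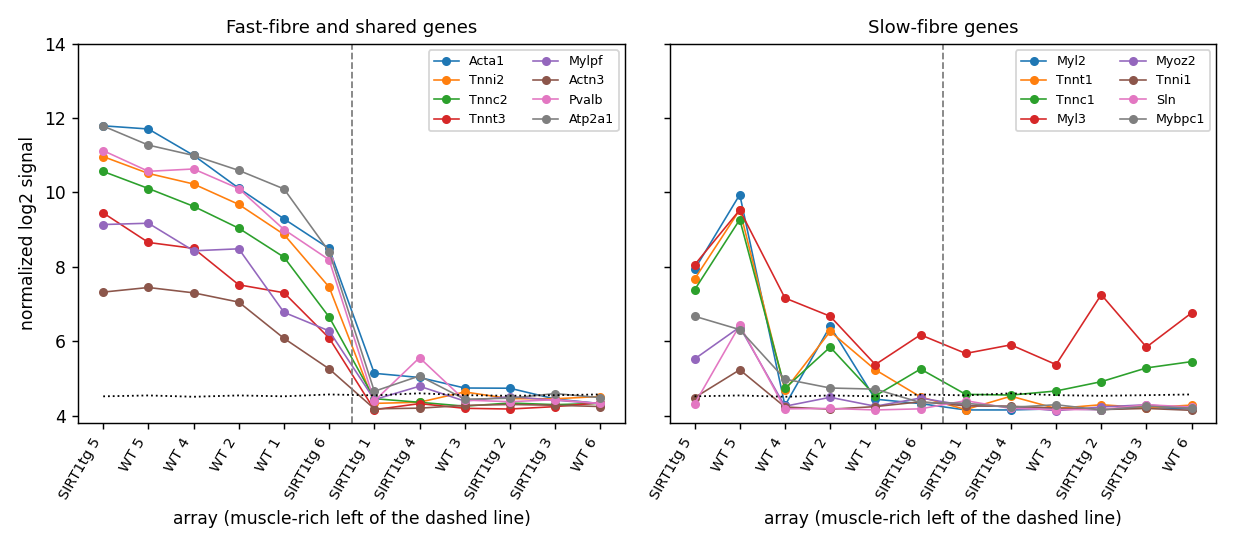
Normalised log2 signal (vertical axis) of fast-fibre or shared genes (left) and slow-fibre genes (right) on each array, muscle-rich samples left of the dashed lines and ordered by Acta1; the dotted line is the lowest detected signal. Fast genes fall in step with Acta1, while Myl2 stands at 9.94 in WT 5, 7.93 in SIRT1tg 5 and 4.27 in WT 4.

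Among the muscle-rich samples the order itself was shared by the fast genes. Of the 18 called genes 17 had their lowest muscle-rich value in SIRT1tg 6 and 18 their highest in SIRT1tg 5 or WT 5, against 14.5% and 31.8% of all genes tested. These shares describe genes chosen on the same samples.

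Outside the muscle lists, a single gene passed the test of the sides, Rbfox1, a splicing regulator known from neurons, heart and skeletal muscle. It had 4.76, 4.99 and 5.49 in the muscle-rich samples, all above background, against 4.21, 4.30 and 4.32 in the muscle-poor samples, none above background. It therefore passed the filter on low values only through the side where it was higher, so its p-value gives no independent support. Rbfox1 was at least 1.40-fold higher (limma adjusted p = 0.0171), was higher by 0.83 within SIRT1tg and by 0.74 within WT, and no muscle-rich value overlapped a muscle-poor one. Blocking on the number range ended the call (limma adjusted p of 0.0531); the adjusted p ranged from 7.11e-05 to 0.736 over 30 alternatives, with a positive difference in all of them.

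With the Acta1 signal as a continuous covariate in place of the sides, 39 genes were called (0.485%), all higher with more Acta1, 33 of them in the muscle lists, and the 18 genes of the comparison of sides were all among them. Outside the muscle lists there were 6: Rbfox1 and 5 others that missed the threshold when the sides were compared. Rtn2, a reticulon of the endoplasmic reticulum, had 5.22 to 6.73 in the muscle-rich and 4.34 to 4.96 in the muscle-poor samples without overlap, a side difference of 1.03 ± 0.22 (limma adjusted p = 0.108, and 0.000295 with continuous Acta1). Ddit4l, an inhibitor of mTOR signalling, was above background in 5 muscle-rich and 2 muscle-poor samples and differed by 0.85 ± 0.23 (adjusted p = 0.324, and 0.000802 with continuous Acta1). Pkia, an inhibitor of protein kinase A, differed by 0.91 ± 0.33, the ATP synthase subunit gene Atp5g1 by 0.57 ± 0.19 and the phosphatase Ptp4a3 by 0.46 ± 0.11, with limma adjusted p of 0.0159, 0.0102 and 0.0211 for continuous Acta1 and of 0.532, 0.509 and 0.240 for the sides. These 5 were named after their values were seen. Whether muscle fibres express them, so that they go with Acta1 as the listed genes do, was not tested.

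Fat genes centred near 0, with single genes to either side. In the brown adipocyte list 21 of 24 genes were tested, the median difference was -0.05 and 10 were flat. The member furthest from 0 was Elovl3, named after its values were seen, at -0.96 ± 0.40 (limma adjusted p = 0.609). Its mean was 6.21 in the muscle-rich and 7.09 in the muscle-poor samples. Of 19 tested general and white adipocyte genes the median was -0.06 and 10 were flat. Over all genes 75.6% were flat, so both fat lists held a smaller share of flat genes than the whole. In limma 0 of either list was called at an adjusted p under 0.05, and 3 in each list had an unadjusted p under 0.05. Over all 8035 genes 18 were called and 628 had an unadjusted p under 0.05. Cidea, a lipid droplet protein of brown fat, differed by -0.01 ± 0.08 and the adipokine Adipoq by -0.03 ± 0.14, both flat. The adipocyte regulator Pparg differed by -0.16 ± 0.12, the lipase Lpl by -0.16 ± 0.09 and the desaturase Scd1 by -0.01 ± 0.08, all flat. Cidea, Lpl and Scd1 lay near the top of the signal scale, where quantile normalisation leaves little room for a difference, as did Cox7a1, Cox8b and Cox6b1, so that flatness there is a limited statement. Other Pparg probes differed by 0.34 ± 0.12 and 0.19 ± 0.19, in the opposite direction. For Ucp1 the difference was -0.18 ± 0.17, with a 95% interval of -0.54 to 0.18, which reaches past the limit of 0.5, so the gene is not in the flat class. Among the white fat genes, leptin, Lep, had 5.49 to 8.66 in the muscle-rich and 5.10 to 7.38 in the muscle-poor samples (1.30 ± 0.54, limma adjusted p = 0.604), and Sncg, a synuclein of white fat, differed by 1.12 ± 0.34 (adjusted p = 0.459). Outside the lists, the prostaglandin synthase Ptgds differed by 1.09 ± 0.27 (adjusted p = 0.254), chosen, like leptin, after its values were seen.

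Respiratory chain genes, abundant in both tissues, had a median difference of 0.05 over 41 genes, with 32 flat, against 75.6% flat over all genes. Of the 41, 29 were higher, against 3692 of 8035 over all genes. In limma 0 were called, but 9 of the 41 had an unadjusted p under 0.05, against 628 of 8035 over all genes. The subunit gene Cox6b1 was flat at -0.05 ± 0.08, and the electron carrier Cycs had the largest difference at 0.74 ± 0.18 (limma adjusted p = 0.254), but its other detected probe differed by 0.05 ± 0.10, so its probes disagree. The beta-oxidation enzyme Hadh differed by 0.67 ± 0.14 on its brightest probe (adjusted p = 0.0804) and by 0.25 ± 0.14 on the other, and the citric acid cycle enzyme Mdh2 differed by 0.34 ± 0.10 (adjusted p = 0.362), while 14 of 17 fatty acid oxidation genes and all 15 cytosolic ribosome genes tested were flat, among them Rplp1 at -0.07 ± 0.09.

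Of the lists for other cell types, none held a gene that passed the test (limma, adjusted p under 0.05), against 18 of 8035 over all genes. Smooth muscle genes had a median difference of -0.01 over 7 genes, 6 of them flat, with Acta2 at 0.05 ± 0.16 and the pericyte gene Rgs5 at -0.01 ± 0.14. Of 12 cardiomyocyte genes 9 were detected on no array, and the only one tested, Myl4, a light chain of atrial and embryonic muscle, differed by -0.13 ± 0.20. The macrophage list leaned lower in the muscle-rich samples, with 16 of 19 genes lower and a median of -0.27, but none was called or had an unadjusted p under 0.05; its mean signal ran from 6.90 to 8.20 in the muscle-rich and from 6.97 to 8.28 in the muscle-poor samples. The macrophage lysozyme Lyz1 differed by -0.36 ± 0.24 (its other probes by -0.15 ± 0.29 and 0.18 ± 0.33), the Fc receptor Fcgr3 by -0.36 ± 0.19 and the antigen-presentation gene Cd74 by -0.10 ± 0.14. Red cell genes leaned higher, 4 of 4, with a median of 0.45, and their mean signal ran from 8.35 to 9.64 in the muscle-rich and from 7.82 to 9.35 in the muscle-poor samples. The globin genes Hbb-bt and Hba-a1 differed by 0.71 ± 0.25 (limma adjusted p = 0.529) and 0.26 ± 0.31. The part of residual blood or immune cells in any side difference was not tested. Matrix genes had a median difference of -0.05 over 20 genes, with Dcn at -0.07 ± 0.15, Sparc at 0.10 ± 0.11 and Dpt at 0.61 ± 0.23 (adjusted p = 0.572), and endothelial genes one of -0.10 over 18, with Egfl7 at -0.11 ± 0.14 and the junction cadherin Cdh5 at -0.28 ± 0.16. In Schwann cell and nerve genes the myelin genes Mbp and Pmp22 differed by -0.38 ± 0.15 (adjusted p = 0.590) and -0.07 ± 0.20, and S100b by 0.43 ± 0.17 (adjusted p = 0.591). Other Mbp probes differed by -0.17 ± 0.29 and 0.01 ± 0.15.

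In the main comparison no gene was called lower in the muscle-rich samples, while 1 was with array weights and 1 without WT 6. The largest shifts downward were those of the lysolipid transporter Mfsd2a, with 4.58, 6.20 and 8.43 in the muscle-rich and 5.97, 8.89 and 11.06 in the muscle-poor samples (-1.82 ± 0.66, limma adjusted p = 0.532), the cytochrome P450 Cyp2b10 (-1.74 ± 0.67, adjusted p = 0.573) and the glucocorticoid-induced chaperone Fkbp5 (-1.17 ± 0.41, adjusted p = 0.529). Their sides overlapped, and these 3 were named after their values were seen.

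The sides and the genotypes were unequally mixed, 2 SIRT1tg to 4 WT against 4 SIRT1tg to 2 WT, which bears on the comparison of genotypes. Since the side was made from Acta1, having it in the model takes up the genotype difference of Acta1 and of the genes that go with it by construction, and those values are not set out here. Genotype calls given the side numbered 75 (0.933%), 63 higher and 12 lower in SIRT1tg, and included all 12 genes called with the side left out. That count depended on single samples: without SIRT1tg 5 or without WT 3 it was 3, and without WT 1 it was 220. Only 2 genes, Sirt1 and Sfxn1, were called whichever sample was left out.

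Sirt1, the overexpressed deacetylase, had 7.96 to 8.58 in the 6 SIRT1tg and 6.43 to 7.27 in the 6 WT samples without overlap, and was higher in SIRT1tg by 1.31 ± 0.15 given the side (limma adjusted p = 0.0021). The mitochondrial serine transporter Sfxn1 was lower by -2.83 ± 0.18 (adjusted p = 2.98e-06), with -2.41 within the muscle-rich and -3.25 within the muscle-poor samples. The side difference was -0.19 ± 0.15 for Sirt1 and 0.09 ± 0.18 for Sfxn1. The preadipocyte factor Dlk1 was higher by 1.10 ± 0.15 (adjusted p = 0.00722), and L3hypdh, Ankrd10 and the protease inhibitor Timp4 by 0.87 ± 0.12, 0.82 ± 0.12 and 0.79 ± 0.12. Erich5 and the zinc finger gene Zxda passed only with the side in the model, at 1.05 ± 0.15 (adjusted p = 0.0139) and 0.99 ± 0.15 (adjusted p = 0.0139), against adjusted p of 0.0554 and 0.101 with the side left out. Of 32 alternatives, Dlk1 lost the call in 3, L3hypdh in 4, Ankrd10 in 4, Zxda in 5, Erich5 in 6 and Timp4 in 7. Sirt1 lost it in 2 and Sfxn1 in 0. In a model with an interaction, 0 genes of 8035 had a side difference that differed between genotypes at a limma adjusted p under 0.05. The lowest adjusted p was 0.999, and 218 of the 8035 had an unadjusted p under 0.05.

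**Figure D5:**
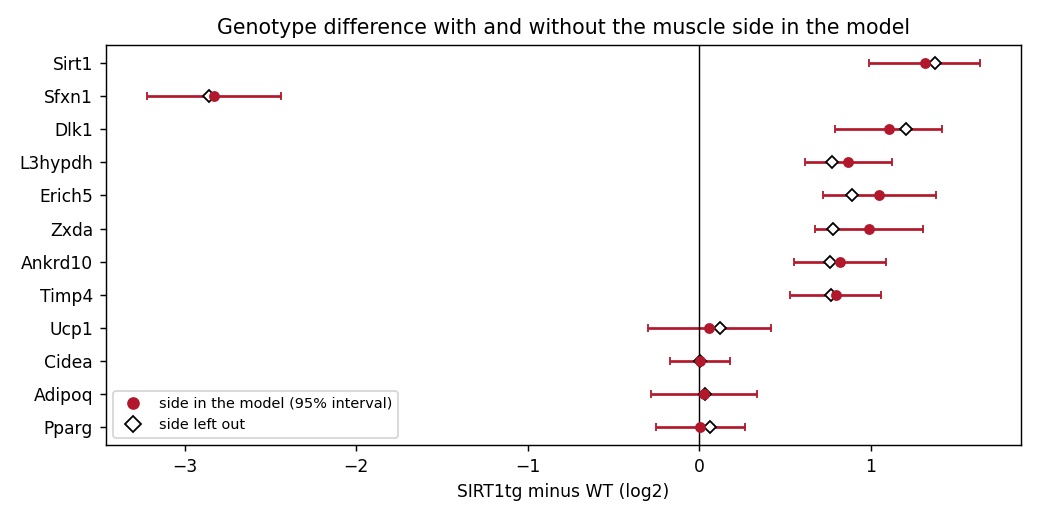
SIRT1tg minus WT difference (horizontal axis, log2) with the side in the model (red, bars are 95% intervals) and with it left out (open diamonds). Sirt1 stands at 1.31 and Sfxn1 at -2.83 with the side in the model.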

How the data were processed

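Illumina bead signals of 12 brown adipose samples were used. The deposited table of the authors holds, per the file headers, an average signal intensity and a detection p-value for each probe and array; it is labelled non-normalised. A second deposited table holds processed signal intensity per sample, whose normalization the sources used here do not state. GenomeStudio is named in the submitters' processing notes, without a version.

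The signals were background-corrected, quantile-normalised and put on the log2 scale with neqc (limma 3.58.1, R 4.3.3, offset 16), so that log2 values are not those deposited by the authors. Probes detected (p under 0.05) on at least 6 arrays were kept, 11413 of 25697, and the brightest probe stood for a gene, giving 8035 genes. Gene names came from the platform annotation. Differences were fitted with lmFit and eBayes, with side and genotype as terms, and p-values were adjusted by Benjamini and Hochberg over all genes. The code was tested on simulated data. The members, gene lists and tests were chosen with earlier results of these data known. Genes named were the 5 markers, Sirt1, 4 fat genes, the members of each muscle list with the largest 3 differences and up to 2 nearest to 0, 3 of each other list, and the leading genes called; others are said to have been chosen after their values were seen, as were slow fibre genes under the filter. The number of arrays limits the precision. Alternatives covered the background correction, scaling, filter, probe choice, division, blocks and left-out samples.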

Additional observations from a re-analysis of the deposited data

Results flagged for a closer look

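In 191 groups of 6 samples, covering 102 genes named in the text, 7 held a sample far from the others of its side by Dixon's criterion, which chance meets in about 1 group in 20. Among the muscle-poor samples, SIRT1tg 4 stood above the others for Pvalb, at a normalised log2 signal of 5.56 against 4.32 to 4.42, for Atp2a1, at 5.06 against 4.44 to 4.65, and for Tpm2, at 4.65 against 4.25 to 4.38. Hrc was at 4.57 in the muscle-poor sample SIRT1tg 2, against 4.30 to 4.38 in the others. The ribosomal protein gene Rpl3 was at 12.53 in the muscle-rich sample WT 1, against 11.80 to 12.05 in the other muscle-rich samples. In the muscle-poor sample WT 6 it was at 11.74, against 12.22 to 12.45 in the others. Actn4, an alpha-actinin of non-muscle cells, was at 8.38 in the muscle-poor sample SIRT1tg 1, against 8.77 to 8.97 in the others.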

How the results depend on the processing

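The 18 genes called between the sides became 7 with normexp at an offset of 50, 4 without background correction, 0 among genes detected on all 12 arrays and 9 without a filter. They became 9 with a robust trended prior, 31 with array weights (30 higher and 1 lower), 39 with continuous Acta1 and 9 with the number range as a block. When 1 sample was left out they became 8 to 28, and without WT 6 there were 9 higher and 1 lower. Added after seeing the data, counting SIRT1tg 6 as muscle-poor gave 32, and the number range as a block with continuous Acta1 gave 37. The 75 genotype calls given the side became 39 without background correction, 5 with median scaling, 23 on the processed values, 9 without a filter, 373 with array weights (235 higher and 138 lower), 12 with the side left out, 170 with the number range as a block, and 3 to 220 when 1 sample was left out. Added later, the number range with continuous Acta1 gave 134, and the muscle-poor and the muscle-rich arrays alone gave 1 each. The cause of these shifts was not tested. After each gene's mean within its genotype was subtracted from the processed values, same-numbered SIRT1tg and WT samples correlated at -0.133 to 0.494. The replicate numbers were therefore not taken to pair them. With the replicate block on the processed values there were 18 side calls, against 21 without it, and 48 genotype calls, against 23. Of the single-gene values under alternatives, 3335 were classed as unchanged, 73 lost the call and 42 moved by more than the spread. For the genotype differences and for Rbfox1, unchanged meant the same direction and the same side of the threshold. For all other side differences it meant a shift smaller than the larger SD of the sides, and for genes not called the sign could change. None of the differences called in the comparison changed sign. Genes near background or near the top of the scale, where the processing compresses differences, limit the size of differences.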
